A study of Homo sapiens with 6 samples.

Results

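Polyamines (putrescine, spermidine and spermine) are small, positively charged molecules that dividing cells make from ornithine and from decarboxylated S-adenosylmethionine. Ornithine decarboxylase makes putrescine, aminopropyl transferases lengthen it, and an acetyltransferase with amine oxidases takes the longer polyamines apart again. Antizymes bind ornithine decarboxylase and deliver it to the proteasome, antizyme inhibitor frees it, and *ODC1* is a textbook target of the transcription factor MYC in colon cells.

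The levels of 10 genes of this pathway, chosen by name, were read in RNA-seq libraries of cells given siRNAs against the lncRNA *SNHG15*. The genes are *ODC1*, *AMD1*, *SRM* and *SMS* for synthesis, *SAT1*, *SMOX* and *PAOX* for catabolism, and *OAZ1*, *OAZ2* and *AZIN1* for control of the decarboxylase. All 10 were found among the 63677 genes of the count table, and all 10 passed the filter on low counts that left 12507 genes for testing. The SNHG15 siRNA group comprised 3 libraries from cells labelled LoVo, a human colorectal cancer line, transfected with a combination of siRNAs to *SNHG15* at 25 nM for 48 h. The scramble siRNA group comprised 3 libraries from the same line given a negative control siRNA with the same dose, time and lipid reagent. No untransfected cells and no single siRNA were sequenced in these libraries, and the 3 libraries of a group are biological replicates of 1 line. Library totals lay between 3446922 and 10256710 counts, the lowest being scramble replicate 3.

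The targeted gene followed the labels, with *SNHG15* at 261 to 290 CPM in the scramble libraries (CPM are counts scaled to each library's total after TMM adjustment) and 77.2 to 87.2 CPM with SNHG15 siRNA. The cell line label was not borne out by every marker. Of 10 colorectal epithelial markers, 6 had at most 1 count in every library, namely *EPCAM*, *KRT19*, *KRT20*, *CDX1*, *VIL1* and *CEACAM5*. The markers read in all 6 libraries were *KRT8* at 41.6 to 68.3, *KRT18* at 20.2 to 28.9 and *CDX2* at 25.4 to 29 CPM, with *CDH1* low at 3.05 to 8.55 CPM. *ZEB1* and *VIM*, mesenchymal genes picked after their values were seen, lay between 178 and 210 CPM and between 40.6 and 69.6 CPM. The housekeeping genes *GAPDH* and *EEF1A1* were low too, at 18.6 to 31.6 and 24.5 to 35.4 CPM. Whether the missing markers reflect the cells or the count table was not tested. The lack of those 6 markers was shared by both groups. The libraries are therefore called by their label here, and the comparison is between treatments of the same cells. The 11 fibroblast, immune and endothelial markers in the table reached at most 9 counts in any library. On the first principal component, with 47.3% of the variance, SNHG15 siRNA replicate 1 lay farthest out, at 35.5 against 8.86 and 11.6 for the other siRNA libraries and -22 to -15.7 for the scramble libraries.

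Antizyme is made only when the ribosome skips a base, so the reading frame of its mRNA is shown here for *OAZ1* and *OAZ2*, the antizyme genes among the 10. The sequences are from the GENCODE release 44 transcripts placed on GRCh37, with the skipped base restored from the genome, and capitals mark the last codon before the stop, the stop codon and the next base.

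OAZ1: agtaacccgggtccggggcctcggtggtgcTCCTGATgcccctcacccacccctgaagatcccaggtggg
OAZ2: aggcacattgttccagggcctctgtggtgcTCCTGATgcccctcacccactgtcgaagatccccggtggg

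The *OAZ1* stretch lies at chr19:2271409-2271478 on the plus strand, in exon 2 of 5. The *OAZ2* stretch lies at chr15:64983678-64983747 on the minus strand, also in exon 2 of 5. The starting frame closed after 68 codons in *OAZ1* and after 32 in *OAZ2*, and the frame shifted by 1 base then ran without a stop for 160 and 157 codons. The stretches were identical at 57 of 70 bases (81.4%), with the same 7 bases at the shift. Counts per gene do not show how often the shift takes place, so they measure antizyme mRNA and not antizyme.

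*ODC1* was the polyamine gene that changed past the threshold. This enzyme of putrescine synthesis (ENSG00000115758, GRCh37 chr2:10580094-10588453, minus strand) was at 983, 980 and 958 CPM in scramble replicates 1 to 3. In the SNHG15 siRNA libraries it was at 655, 700 and 736 CPM. The highest siRNA library lay far below the lowest scramble library, and the scramble libraries differed from each other by very little. The mean fell from 974 ± 13.6 to 697 ± 40.2 CPM (SD, n = 3 each), which left 71.6% of the scramble level. On the log2 scale this was a change of -0.48 with a 95% interval of -0.72 to -0.24 (adjusted p = 0.0262 by the quasi-likelihood test of edgeR, adjusted after Benjamini and Hochberg across the 12507 genes). In these bulk libraries less mRNA per cell and fewer cells with the mRNA cannot be told apart. An exact permutation test on its log2 CPM gave a two-sided p of 0.1, the smallest that 3 against 3 allow. *OAZ1*, *AMD1*, *SMS* and *SMOX* had the same p by that test. For *ODC1* it only restates that the groups did not overlap. The lowest library held 3168 reads of *ODC1*, for a counting error of 1.78%. The call was lost without scramble replicate 1 (adjusted p = 0.108 from edgeR), scramble replicate 2 (0.103), scramble replicate 3 (0.0786) or SNHG15 siRNA replicate 2 (0.0909), while the fold change kept between -0.52 and -0.44 over the 6 fits that left out 1 library.

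Across the 10 genes, 1 passed the adjusted p of 0.05, and it was lower. Of all genes tested 5.36% were called, and 2.23% of all genes tested were called lower. With 10 genes, 1 call is near that background and is no result about the group. At an unadjusted p of 0.05 there were 3 of 10 genes, *ODC1*, *OAZ1* and *AMD1*, against 22.5% of all genes. The siRNA libraries lay entirely below the scramble libraries in 5 of 10 genes, *ODC1*, *AMD1*, *SMS*, *SMOX* and *OAZ1*, and entirely above them in 0. Of all genes, 28.8% had groups that did not overlap, 14.1% lower and 14.7% higher. The median log2 fold change of the 10 genes was -0.22, with 7 below 0, against a median of 0.00 and 49.9% below 0 over all genes. Summed over the 10 genes, the level was 3854 to 3960 CPM with scramble siRNA and 3039 to 3190 CPM with SNHG15 siRNA, of which *OAZ1* alone made up 49.4% to 52.9%. That sum therefore follows *OAZ1* and *ODC1* and says little of the other genes.

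**Figure D1:**
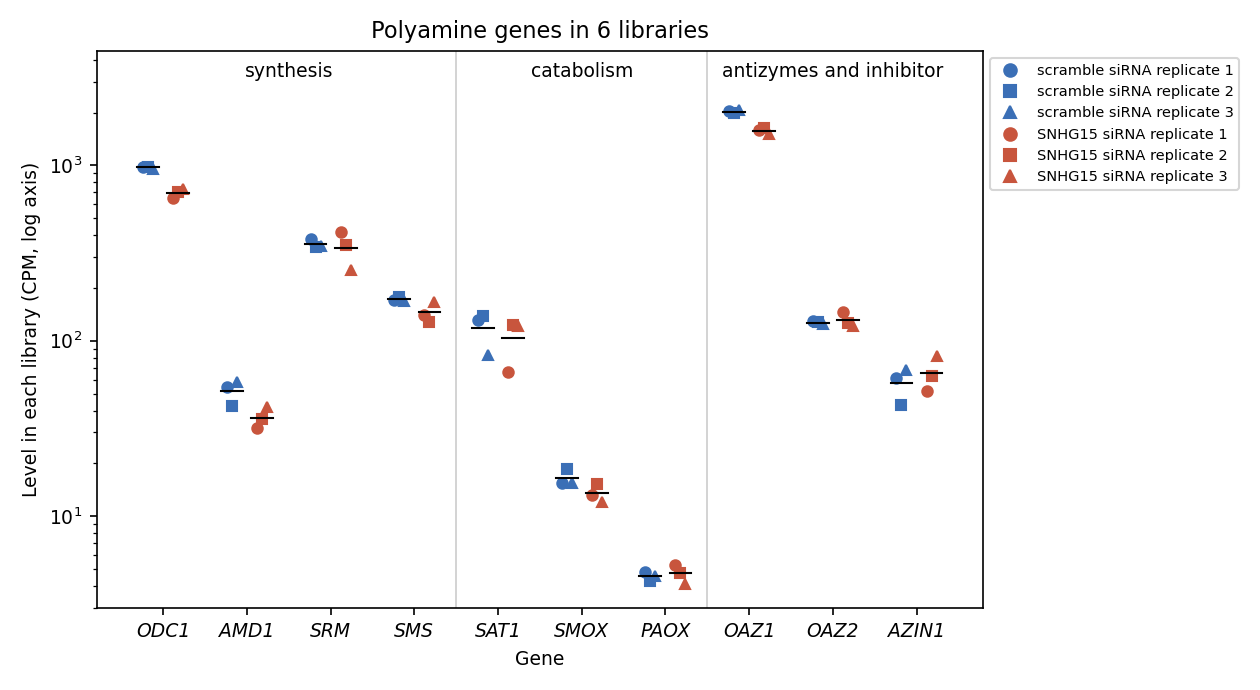
Level of each polyamine gene in each library, in CPM on a log axis, with blue for scramble siRNA, red for SNHG15 siRNA, symbols for replicates 1 to 3 and black lines for means. *ODC1* and *OAZ1* form separate groups of points, while *OAZ2*, *SRM*, *SAT1*, *PAOX* and *AZIN1* overlap.

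*AMD1*, *SRM* and *SMS* make spermidine and spermine from putrescine, and they did not pass the threshold. *AMD1* (GRCh37 chr6:111195973-111220082, plus strand) makes the decarboxylated S-adenosylmethionine that donates aminopropyl groups, and its level was 54.8, 42.7 and 57.8 CPM in the scramble libraries. In the SNHG15 siRNA libraries *AMD1* was at 31.7, 35.8 and 41.7 CPM. The groups were separate, but scramble replicate 2 and siRNA replicate 3 lay close together. Its log2 fold change of -0.49 was as large as that of *ODC1*, with a wider 95% interval of -0.84 to -0.15 and an adjusted p of 0.0887 from edgeR. The replicates of *AMD1* varied by 15.5% and 13.7% of their mean (SD, n = 3 each), against 1.39% and 5.77% for *ODC1*. Part of this gene is repeated elsewhere, since 4.63% of the 75-base windows of its main transcript had an exact second match in GRCh37.

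Spermidine synthase, *SRM* (GRCh37 chr1:11114641-11120077, minus strand), was at 378, 341 and 349 CPM in the scramble libraries. Its SNHG15 siRNA libraries spread from 415 in replicate 1 through 350 to 254 CPM in replicate 3, on either side of every scramble library. The mean went from 356 ± 19.6 to 340 ± 81.1 CPM (SD, n = 3 each), and the log2 fold change was -0.07 with a 95% interval of -0.41 to 0.28 (adjusted p = 0.843 from edgeR). Leaving out siRNA replicate 3 turned the estimate to 0.11. In the fits that left out any other library it stayed below 0, at -0.24 without siRNA replicate 1. Spermine synthase, *SMS* (GRCh37 chrX:21958827-22012955, plus strand), was at 171, 177 and 169 CPM against 140, 128 and 166 CPM. All siRNA libraries were below the scramble libraries, replicate 3 by a narrow margin. Its log2 fold change was -0.25 with a 95% interval of -0.53 to 0.02 (adjusted p = 0.259 from edgeR). For *SMS*, 23.6% of the 75-base windows had an exact match elsewhere in the genome, so its count may miss reads, while its pseudogene *SMSP1* had 0 counts in all libraries.

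**Figure D2:**
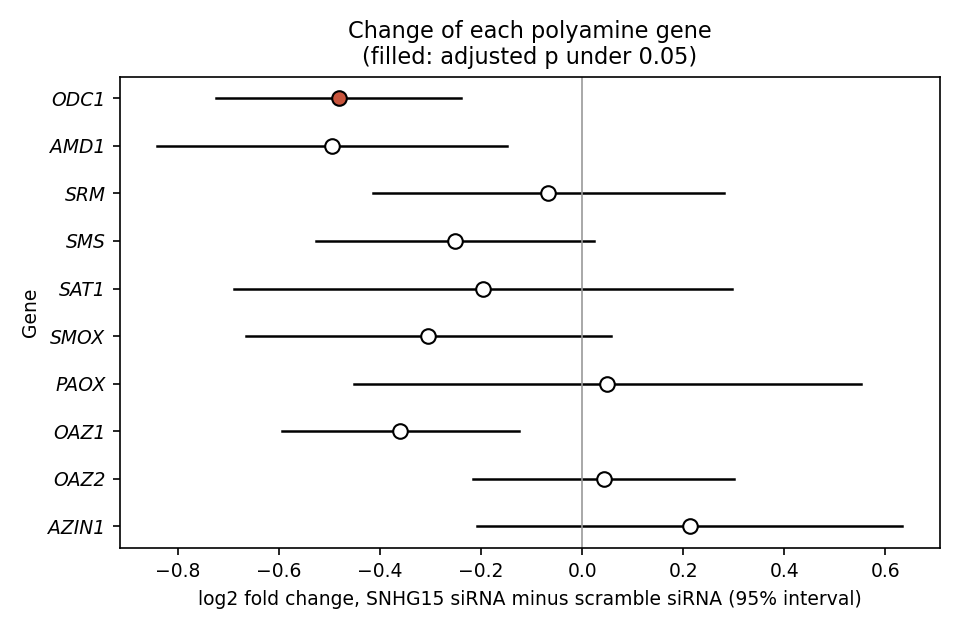
The log2 fold change of each gene (SNHG15 siRNA minus scramble siRNA, points) with its 95% interval from edgeR (lines), filled where the adjusted p was under 0.05. The intervals of *ODC1*, *AMD1* and *OAZ1* lie below 0, and those of the other 7 genes include it.

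The catabolic genes did not pass the threshold, and their intervals were wide. *SAT1* (GRCh37 chrX:23801290-23804327, plus strand) encodes the acetyltransferase that starts polyamine breakdown, and it was at 132, 139 and 82.6 CPM in the scramble libraries. In the SNHG15 siRNA libraries *SAT1* was at 66.5, 123 and 122 CPM. One library of each group, scramble replicate 3 and siRNA replicate 1, stood low, and the remaining 4 lay between 122 and 139 CPM. *SAT1* had a log2 fold change of -0.20 with a 95% interval of -0.69 to 0.30 (adjusted p = 0.655 from edgeR), and it was 0.03 without siRNA replicate 1 and -0.39 without scramble replicate 3.

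*SMOX* (GRCh37 chr20:4101627-4168394, plus strand), the oxidase that turns spermine directly into spermidine, was at 15.5, 18.6 and 15.4 CPM against 13.2, 15.2 and 12.1 CPM. The siRNA libraries were all lower, replicate 2 only just. Its log2 fold change was -0.30 with a 95% interval of -0.67 to 0.06 (adjusted p = 0.301 from edgeR). *PAOX* (GRCh37 chr10:135192765-135205198, plus strand) oxidises the acetylated polyamines. Its counts were the lowest of the 10 genes, at 4.8, 4.28 and 4.54 CPM against 5.27, 4.75 and 4.11 CPM. The groups of *PAOX* overlapped, with a log2 fold change of 0.05 and a 95% interval of -0.45 to 0.55 (adjusted p = 0.923 from edgeR). *PAOX* rested on 15 to 43 reads a library, and the counting error at 15 reads is 25.8%. A fall or a rise as large as the ends of that interval is not excluded. Of the exon bases annotated for *PAOX*, 61% are shared with ENSG00000254536 on the same strand, which had 0 counts in all libraries. How reads on shared bases were counted is not given in the sources used here. The *PAOX* count may therefore miss reads.

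Neither antizyme gene passed the threshold, and *OAZ1* came nearest to it. *OAZ1* (ENSG00000104904, GRCh37 chr19:2269508-2273489, plus strand), the general antizyme and the most abundant of the 10 genes, was at 2031, 1981 and 2055 CPM in the scramble libraries. In the SNHG15 siRNA libraries *OAZ1* was at 1584, 1643 and 1500 CPM. The highest siRNA library, replicate 2, was well below the lowest scramble library, replicate 2 of that group. The mean was 2023 ± 37.9 CPM with scramble siRNA and 1576 ± 71.6 CPM with SNHG15 siRNA (SD, n = 3 each), the latter being 77.9% of the former. Its log2 fold change was -0.36 with a 95% interval of -0.59 to -0.13, and the adjusted p of 0.0708 from edgeR missed the threshold. With DESeq2 the adjusted p was 0.0261, and over the 6 edgeR fits that left out 1 library it lay between 0.0506 and 0.194.

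Antisense to *OAZ1*, *JSRP1* shares 236 exon bases with it, which is 6.87% of the annotated *OAZ1* exon bases. *JSRP1* was at 45.7, 34.4 and 35.7 CPM with scramble siRNA and at 63.9, 59 and 47.2 CPM with SNHG15 siRNA. It lay higher in every siRNA library, opposite to *OAZ1* (log2 fold change 0.55, adjusted p = 0.067 from edgeR). The strand setting used for counting is not given in the sources used here, and the part of this overlap in the *OAZ1* count was not tested. The processed pseudogene *OAZ1P1* had 15 to 70 reads a library, and no 75-base window of *OAZ1* had an exact match elsewhere.

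*OAZ2* (GRCh37 chr15:64979772-64995480, minus strand), a paralog with the same shift site, was at 129, 128 and 125 CPM with scramble siRNA and at 145, 127 and 121 CPM with SNHG15 siRNA. The siRNA libraries enclosed the scramble libraries. Its log2 fold change was 0.04 with a 95% interval of -0.22 to 0.30 (adjusted p = 0.867 from edgeR). That interval leaves out a fall as large as the -0.36 estimated for *OAZ1*, although the difference between the genes was not tested. *AZIN1* (GRCh37 chr8:103838339-103906092, minus strand), the inhibitor that resembles ornithine decarboxylase and binds antizyme in its place, was at 61.4, 42.9 and 68 CPM against 52, 63.1 and 82.2 CPM. Its replicates spread by 22.7% and 23.2% of their mean (SD, n = 3 each), and the groups overlapped. *AZIN1* had a log2 fold change of 0.21 with a 95% interval of -0.21 to 0.63 (adjusted p = 0.555 from edgeR), and it shrank to 0.02 without siRNA replicate 3.

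Ratios of raw counts within a library do not depend on its scaling and were set side by side as a description, with no test. The ratio of *ODC1* to *OAZ1*, of the enzyme's mRNA to that of its antizyme, was 0.484, 0.495 and 0.466 with scramble siRNA and 0.414, 0.426 and 0.49 with SNHG15 siRNA. Replicate 3 of the siRNA libraries lay within the scramble range, so this ratio overlapped between groups. The ratio of *ODC1* to *AZIN1* was 16, 22.9 and 14.1 against 12.6, 11.1 and 8.95, and every siRNA library was lower. For *OAZ1* to *AZIN1* it was 33.1, 46.2 and 30.2 against 30.5, 26 and 18.2, and the groups overlapped.

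The ratio of *OAZ1* to *OAZ2* was 15.8, 15.4 and 16.5 against 10.9, 12.9 and 12.4, a mean of 15.9 ± 0.52 against 12.1 ± 1.04 (SD, n = 3 each). Every siRNA library was again lower, although *OAZ1* still had at least 10.9 times the counts of *OAZ2* in every library. By contrast the ratio of *ODC1* to *AMD1* averaged 19.2 ± 3.37 and 19.3 ± 1.52 (SD, n = 3 each), with overlapping groups. The ratio of *SRM* to *SMS* was 2.21, 1.93 and 2.06 against 2.96, 2.73 and 1.53. Its siRNA replicates 1 and 2 were above and replicate 3 below the scramble range, so the balance of the aminopropyl transferase mRNAs spread widely among siRNA replicates. *SMOX* to *PAOX* was 3.22, 4.35 and 3.4 against 2.5, 3.21 and 2.94, with every siRNA library lower, replicate 2 only just. *SRM* to *ODC1* and *ODC1* to *SAT1* overlapped between groups. No share over all pairs of genes was computed, while 28.8% of single genes had groups that did not overlap.

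**Figure D3:**
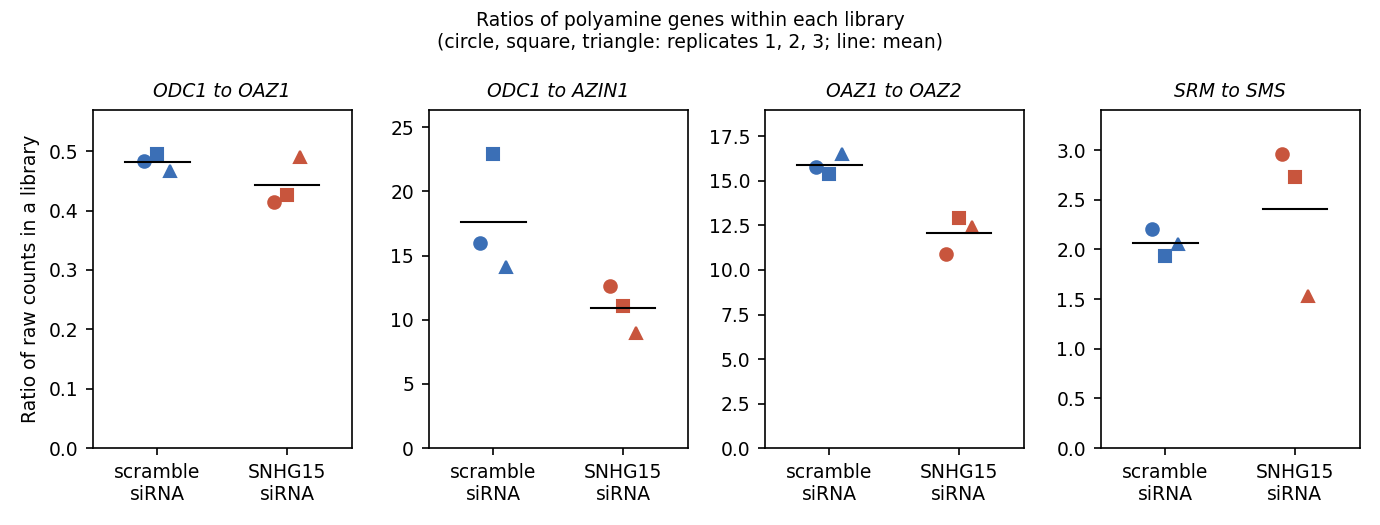
Ratio of raw counts of a pair of genes in each library, with an axis from 0, blue for scramble siRNA and red for SNHG15 siRNA, symbols for replicates and lines for means. *OAZ1* to *OAZ2* and *ODC1* to *AZIN1* separate the groups, and *ODC1* to *OAZ1* and *SRM* to *SMS* do not.

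Compared per length, as CPM per kb of the main GENCODE transcript, the genes of the scramble libraries fell into a wide range. *OAZ1* was highest at 1760 ± 32.9 CPM per kb (SD, n = 3), followed by *ODC1* at 393 ± 5.51 and *SRM* at 283 ± 15.5 CPM per kb. *SAT1* and *SMS* came next at 112 ± 29.3 and 101 ± 2.44 CPM per kb, and their libraries overlapped, so they cannot be ordered. *OAZ2* was at 65.8 ± 1.08 CPM per kb, far under *OAZ1*. *AMD1* and *AZIN1*, at 15.1 ± 2.34 and 13.7 ± 3.1 CPM per kb, could not be ordered either, and *SMOX* and *PAOX* were lowest at 7.62 ± 0.841 and 2.48 ± 0.142 CPM per kb. When the length of all annotated exons was used instead, the order of the means changed. *AMD1* dropped to 5.08 CPM per kb, below *AZIN1* at 9.37 and *SMOX* at 5.6 CPM per kb. *SMS* at 80.9 then stood above *SAT1* at 47.5 CPM per kb. *OAZ1* at 589 was nearer to *ODC1* at 294 CPM per kb. Levels of a pair of housekeeping genes bear on this order. *EEF1A1*, where 43.9% of the windows had an exact match elsewhere, was at only 24.5 to 35.4 CPM, and *GAPDH*, with 3.8% of its windows matched, at 18.6 to 31.6 CPM. Both are among the most abundant mRNAs of most cells, and they were picked after their values were seen. Why they are low in this table was not tested, and the same doubt applies to the level of any gene in it.

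MYC binds the E-box CACGTG, a sequence that reads the same on both strands, and the start regions of the polyamine genes were searched for it. Of the 10 genes, 7 had windows in the RefSeq table of promoters (GRCh38.p14), which run from 250 bases before to 50 bases after each annotated start, with 10 windows in all. *ODC1* and *SRM* held the E-box, in 2 of 7 genes and 2 of 10 windows, while 8.77% of the 27305 genes and 7.26% of the 35116 windows of the table did. The stretches with it are shown because both genes belong to the synthesis branch, with the E-boxes in capitals and positions on GRCh37 by exact match.

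ODC1: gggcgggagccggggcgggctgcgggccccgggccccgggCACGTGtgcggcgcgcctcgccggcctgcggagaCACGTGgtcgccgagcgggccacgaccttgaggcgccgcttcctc
SRM: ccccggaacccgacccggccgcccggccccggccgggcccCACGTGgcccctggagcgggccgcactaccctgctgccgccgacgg

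The *ODC1* stretch, chr2:10588089-10588207 on the minus strand, holds the E-box 2 times, starting 286 and 320 bases after the start of the main transcript, in an intron. It was therefore found in the window of another annotated start of *ODC1*. The *SRM* stretch, chr1:11120229-11120314 on the minus strand, holds it 1 time, 199 bases before the start. *MYC* itself was at 686 ± 85.1 CPM in the scramble and 435 ± 125 CPM in the SNHG15 siRNA libraries (SD, n = 3 each), lower in every siRNA library, with an adjusted p of 0.0613 from edgeR. Of the genes with the E-box, *ODC1* fell, while *SRM* had values on both sides of the scramble libraries and did not pass the threshold. Whether the level of *MYC* bears on either gene was not tested. A match of these letters is a description of the sequence and not a measured binding site.

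The genes around the pathway were read from 8 lists, all with log2 fold changes from the same fit. Of 62 genes listed, 48 were tested, 2 were called, both higher, and 10 had an unadjusted p under 0.05, against 22.5% of all genes. Their median log2 fold change was -0.05, with 28 of 48 below 0, against 49.9% of all genes. Single lists of 3 to 9 tested genes are too short to set against these shares. As 3.13% of all genes were called higher, 2 of 48 is close to the background. The count was 0 without scramble replicate 1 or 2, 1 without scramble replicate 3 or SNHG15 siRNA replicate 2, and 6 without SNHG15 siRNA replicate 3.

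Both called genes had few reads. *SMAD1*, a BMP signal transducer listed for its reported turnover with antizyme, had 3, 6 and 1 reads with scramble siRNA and 25, 14 and 17 with SNHG15 siRNA. It was the call among 6 tested genes of antizyme-linked turnover, of which 3 had an unadjusted p under 0.05 and 1 passed with DESeq2. Every siRNA library was higher (log2 fold change 2.41, 95% interval 1.42 to 3.40, adjusted p = 0.0109 from edgeR). *APC* was listed as a colon tumor suppressor reported to restrain *MYC* and through it *ODC1*, an action not tested here. It had 9, 12 and 3 reads against 45, 27 and 14. It rose by 1.81 on the log2 scale (95% interval 0.79 to 2.83, adjusted p = 0.0431 from edgeR), from 1.05 ± 0.143 to 3.92 ± 2.3 CPM (SD, n = 3 each). It was the call among 9 tested regulators of polyamine genes, of which 3, *MYC* included, had an unadjusted p under 0.05 and 2 passed with DESeq2. Both called genes dropped out of the test when at least 10 counts were asked of every library.

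Among the paralogs of the 10 genes, 0 of 3 tested passed with edgeR or DESeq2, and 0 had an unadjusted p under 0.05. *OAZ3*, known as the testis antizyme, was at 1.73 ± 0.727 and 3.02 ± 0.279 CPM (SD, n = 3 each; adjusted p = 0.239 from edgeR). *AZIN2*, the other antizyme inhibitor, was at 2.85 ± 0.172 and 4.02 ± 0.252 CPM (SD, n = 3 each; adjusted p = 0.273). Both were higher in every siRNA library, on 3 to 33 reads a library. *SAT2*, the other tested paralog and read far more often, was lower in every siRNA library. It was at 198 ± 5.89 and 179 ± 6.2 CPM (SD, n = 3 each; adjusted p = 0.48 from edgeR). *SATL1* was not tested, with at most 4 reads.

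For arginine and ornithine supply, 0 of 8 tested genes passed with edgeR or DESeq2, and 0 had an unadjusted p under 0.05. The smallest p was that of *OAT*, ornithine aminotransferase, at 71.9 ± 8.62 and 87.9 ± 15 CPM (SD, n = 3 each; adjusted p = 0.289 from edgeR). *SLC25A15*, the mitochondrial ornithine carrier, was at 11.5 ± 0.507 and 9.32 ± 0.456 CPM (SD, n = 3 each), lower in every siRNA library (adjusted p = 0.328). *ARG1* had 0 counts in all libraries, so ornithine-producing arginase was represented by *ARG2* at 7.03 and 6.11 CPM. *OTC* had 0 counts as well.

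In the methionine cycle and the salvage of methylthioadenosine, the by-product of spermidine and spermine synthesis, 0 of 9 tested genes passed with edgeR, 1 had an unadjusted p under 0.05 and 1 passed with DESeq2. *ENOPH1*, an enzyme of that salvage route, was at 97.8 ± 10.2 and 66.9 ± 16.3 CPM (SD, n = 3 each), lower in every siRNA library (log2 fold change -0.55, adjusted p = 0.0791 from edgeR). *APIP*, which acts one step before it, was at 34.9 ± 2.34 and 28.3 ± 8.98 CPM (SD, n = 3 each) with overlapping groups. *MTAP*, the first enzyme of the route, was at 185 and 183 CPM.

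The hypusine pathway uses spermidine to modify the translation factor eIF5A. Of its 4 genes, 0 passed with edgeR or DESeq2 and 0 had an unadjusted p under 0.05. *EIF5A* was at 1312 ± 23.2 and 1276 ± 256 CPM (SD, n = 3 each), *DHPS* at 17.6 ± 1.87 and 20.6 ± 1.51 CPM, and *DOHH* at 42.7 ± 2.89 and 34.6 ± 7.56 CPM. All 3 overlapped between groups.

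In polyamine transport, 0 of 6 tested genes passed with edgeR or DESeq2, and 2 had an unadjusted p under 0.05. *SLC18B1*, a vesicular polyamine transporter, was at 22.5 ± 3.06 and 29.9 ± 6.42 CPM (SD, n = 3 each; adjusted p = 0.173 from edgeR). *SLC12A8* was at 17 ± 3.26 and 13.1 ± 0.951 CPM (SD, n = 3 each; adjusted p = 0.192). *ATP13A3* and *ATP13A2*, the P-type ATPases of polyamine uptake, had overlapping groups. For the breakdown of acetylpolyamines and aminoaldehydes, 0 of 3 tested genes passed with edgeR or DESeq2, and 1 had an unadjusted p under 0.05. This was *HDAC10*, a polyamine deacetylase, at 7.43 ± 3.15 and 15.3 ± 7.5 CPM (SD, n = 3 each; log2 fold change 0.96, adjusted p = 0.125 from edgeR), with overlapping groups. *ALDH9A1*, an aminoaldehyde dehydrogenase, was at 100 ± 3.58 and 89.8 ± 8.72 CPM (SD, n = 3 each; adjusted p = 0.49).

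**Figure D4:**
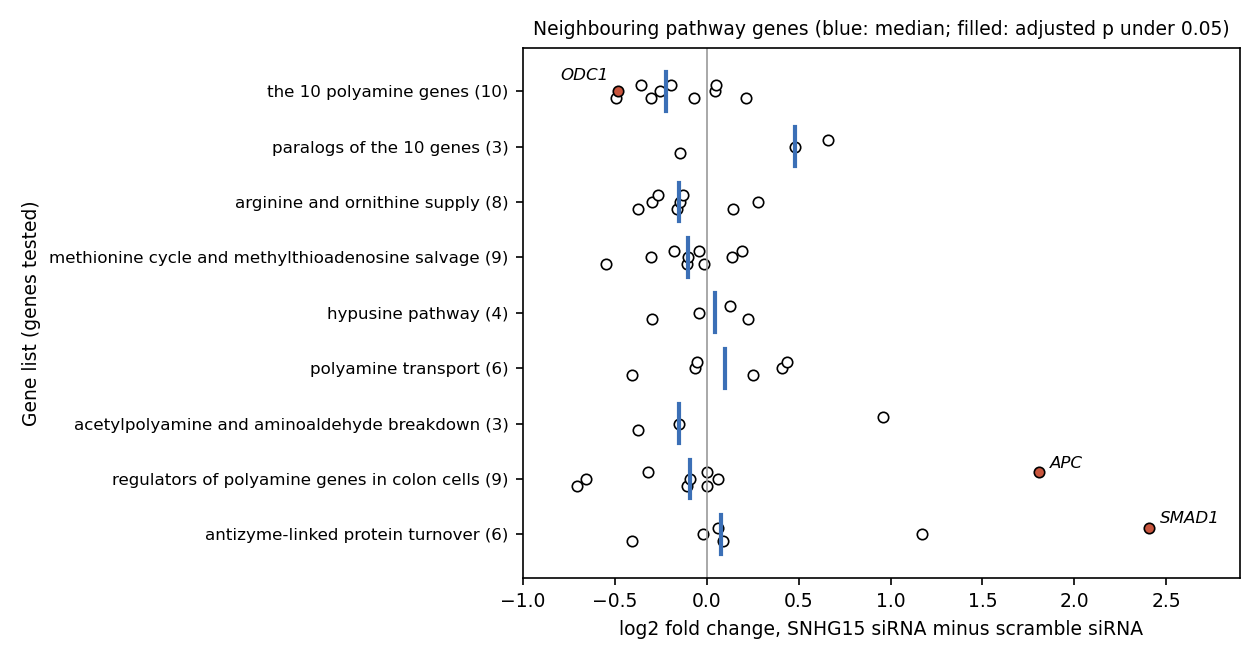
The log2 fold change (SNHG15 siRNA minus scramble siRNA) of each tested gene in the 10 polyamine genes and in the 8 lists around them, with blue bars for list medians and filled points for an adjusted p under 0.05. *ODC1*, *APC* and *SMAD1* are the filled points, and the list medians lie between -0.22 and 0.48.

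The choice of libraries moved the genes unequally. Over the 6 fits that left out 1 library, *ODC1* ranged by less than 0.1 on the log2 scale and *OAZ1* from -0.39 to -0.32. *SAT1* ranged from -0.39 to 0.03, *SRM* from -0.24 to 0.11 and *AZIN1* from 0.02 to 0.37 (log2 fold changes). The sign of *SAT1*, *OAZ2* and *PAOX* turned without SNHG15 siRNA replicate 1, the library farthest out on the first principal component, and the sign of *SRM* turned without SNHG15 siRNA replicate 3.

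**Figure D5:**
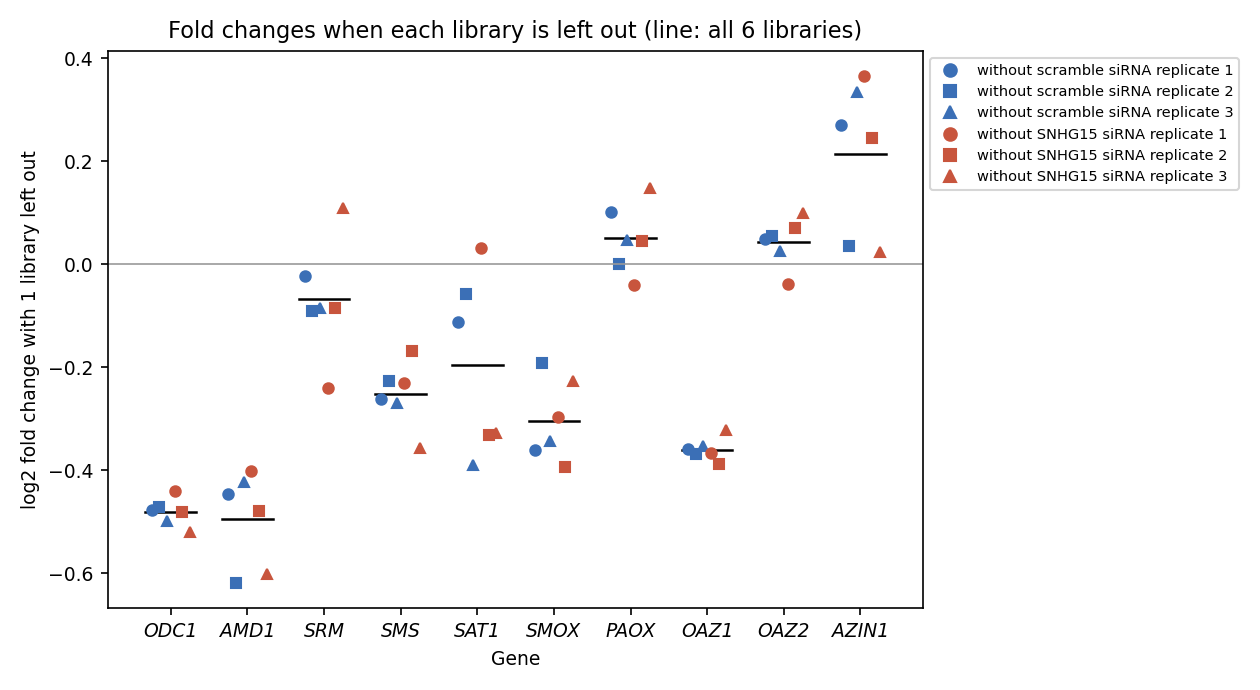
The log2 fold change of each polyamine gene with 1 library left out, blue for scramble and red for SNHG15 siRNA libraries, and black lines for the fit with all 6. *ODC1* stays between -0.52 and -0.44, while *SAT1*, *SRM*, *OAZ2* and *PAOX* cross 0.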

How the data were processed

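Poly(A) RNA of cells transfected with scramble or *SNHG15* siRNAs was sequenced as paired 75 bp reads from a stranded mRNA kit. The deposited values are raw counts of reads for each Ensembl gene, not normalized by the authors, after alignment to hg19. The study's methods name bowtie2 and DESeq2, while the submitters' processing notes name STAR and featureCounts. The annotation, the strand setting and the treatment of multiply placed reads are not given in the sources used here, and the methods and labels also differ on the RNA kit. Groups and replicate numbers came from sample titles, and column names matched the sample descriptions.

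Counts were tested here with edgeR 4.0.16 in R 4.3.3. The filter was filterByExpr (minimum count 10, total 15), scaling was by TMM, and the quasi-likelihood test compared 3 with 3 libraries without a block, called at an adjusted p of 0.05 (Benjamini-Hochberg). Intervals are 95% and use the test's standard error and degrees of freedom. Counting errors cover the drawing of reads only. Alternatives were DESeq2 1.42.0, RLE and upper-quartile factors, no filter, 10 counts in every library, a replicate block and leaving out each library. The steps were tested on simulated data with changes larger than any found for the 10 genes, so recovery of smaller changes was not tested. Names and positions came from GENCODE release 44 on GRCh37, where 55665 of 63677 identifiers matched. Copies were sought as exact matches of 75-base windows in GRCh37.

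The 10 genes, the lists and the alternatives were chosen with earlier results of these data known. Named were all 10 genes, *SNHG15*, each listed gene past the threshold and otherwise the 2 with the smallest p in a list. Named beyond this rule were *MYC*, *JSRP1*, *SAT2*, *SATL1*, *ARG1*, *ARG2*, *OTC*, *MTAP*, *EIF5A*, *ATP13A2*, *ATP13A3*, *SMSP1*, *OAZ1P1*, *ZEB1*, *VIM*, *GAPDH* and *EEF1A1*. These were singled out after values were seen, beside the markers of the cell line check. Columns of other series numbered 0. Pairs of replicates within a group differed by more than sampling noise, the lowest chi-square being 4.18 times its degrees of freedom.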

Additional observations from a re-analysis of the deposited data

How the results depend on the processing

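*ODC1* kept its direction under all 12 alternatives and passed the threshold in 5 of the 6 that kept all libraries and in 2 of the 6 that left 1 out. Same-numbered libraries of the groups did not deviate together (r of -0.08, 0.18 and -0.06 for replicates 1 to 3), so the labels' numbers were not taken as pairs. With the replicate block, 0 of the 10 genes passed in edgeR, 3 had an unadjusted p under 0.05, and *ODC1* was at -0.48 with an adjusted p of 0.0579. With DESeq2, 2 of the 10 genes and 4 of the listed genes passed, and *OAZ1* passed at -0.37. Without a filter on low counts, 1312 genes passed in all, 685 of them higher, with 3 of the 10 genes (*OAZ1* at -0.39 and *AMD1* at -0.52 added) and 7 listed genes. With 10 counts in every library, 0 listed genes passed in edgeR and 7 had an unadjusted p under 0.05, since *APC* and *SMAD1* were no longer tested. The cause of the other differences was not tested.

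In the fits without 1 library, the count over all genes ranged from 139 to 812 (73 to 425 higher) against 671 with all libraries, that of the 10 genes from 0 to 1, and that of the listed genes from 0 to 6. The count over all genes was 199, 139 and 266 without scramble replicates 1, 2 and 3 and 356 without SNHG15 siRNA replicate 2. The listed genes gave 0 without scramble replicate 1 or 2 (8 and 7 at an unadjusted p under 0.05 in edgeR), 1 without scramble replicate 3 or SNHG15 siRNA replicate 2, and 6 without SNHG15 siRNA replicate 3. In the fits with 0 of the 10 genes past the threshold, 3 had an unadjusted p under 0.05. The log2 fold change ranged from -0.52 to -0.44 for *ODC1*, from -0.0385 (without SNHG15 siRNA replicate 1) to 0.10 for *OAZ2*, from -0.24 to 0.11 for *SRM*, from -0.39 to 0.0316 (without SNHG15 siRNA replicate 1) for *SAT1* and from -0.0407 (without SNHG15 siRNA replicate 1) to 0.15 for *PAOX*. The shallow scramble replicate 3 limits *PAOX* and *SMOX*, with 15 and 51 reads there.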
